A study of Bos taurus with 9 samples.

Results

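The genes described here, 59 of the 21512 in the deposited table, were chosen by their measured values as genes that peaked on day 3 of a 6-day chemical induction of bovine fibroblasts. The rule asked for a mean of at least 5 CPM (expected counts scaled to the total of the library) in CiADCs-3d, more than 2 times the mean of both BEFs and CiADCs-6d, with the lowest CiADCs-3d sample above the highest sample of the other groups. The set was sensitive to single samples. Without CiADCs-3d replicate 1 the rule was met by 116 genes, without CiADCs-6d replicate 1 by 122, and without both, a setting added after the values had been seen, by 173, of which 56 were members.

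The study turned wild-type bovine ear fibroblasts (BEFs) into adipocyte-like cells (CiADCs) with small molecules and sequenced RNA from 3 samples per group, 9 in all. BEFs were sampled on day 0, before any compound. CiADCs-3d and CiADCs-6d had spent 3 and 6 days in N2B27, a serum-free medium, with RepSox at 10 µM, which inhibits the TGF-beta type I receptor kinase, VPA at 500 µg/mL, which inhibits histone deacetylases, and TTNPB at 1 µM, which activates retinoic acid receptors. The compounds stayed on through day 6, and the maintenance medium with insulin and rosiglitazone came only afterwards, so it was given to none of these samples. BEFs and the induced cells alike were wild type. No fibroblasts were cultured alongside without the compounds, so compounds, medium and time in culture cannot be told apart, and the labels do not say whether samples of a group came from separate animals or inductions. The p-values therefore measure the spread between these samples, which may be technical.

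Adipogenesis is controlled by the nuclear receptor PPARG, which switches on genes of lipid uptake and storage. Growth factor supply is set in part outside the cell, where IGF-binding proteins hold insulin-like growth factors (IGFs) and release them. Retinoic acid receptor agonists act on many genes of development and skin, and the effect of retinoids on fat cell formation is known to depend on when they are given.

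Library totals ran between 18509244 and 24071580 expected counts. Fibroblast markers, 25 of 25 detected, had summed levels of 113929 to 119888 CPM (BEFs), 67846 to 83784 CPM (CiADCs-3d) and 53832 to 65452 CPM (CiADCs-6d). Mature adipocyte markers, of which 18 of 24 reached 1 CPM in a group, summed to 723 to 871, 614 to 870 and 532 to 760 CPM in the same order, so their summed level did not separate the groups. The adipocyte hormone ADIPOQ averaged 1.13, 4.85 and 4.02 CPM, and LGALS12 had no count in any sample. Pearson's r across genes between CiADCs-3d replicate 1 and the CiADCs-6d samples was 0.972 to 0.975, and that of CiADCs-6d replicate 1 with the CiADCs-3d samples was also 0.972 to 0.975. Replicates 2 and 3 of both days lay further apart, at 0.952 to 0.958.

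Summed over the 59 genes, expression was 2522, 2536 and 2468 CPM in BEFs, 14503, 17482 and 18660 CPM in CiADCs-3d and 9205, 6275 and 6077 CPM in CiADCs-6d. Much of this sum came from genes for IGF-binding proteins. Without them the sum was 1769 to 1791 CPM in BEFs, 5912 to 7113 CPM in CiADCs-3d and 2375 to 3388 CPM in CiADCs-6d. The CiADCs-3d mean of single members lay between 5.27 and 6085 CPM, with a median of 18.2 CPM. It was under 10 CPM in 15 members and above 100 CPM in 14. The peak was modest for most of them: the CiADCs-3d mean was 2 to 8.2 times the higher of the other means, with a median of 2.49, and above 3 times in 10 members. That higher group was CiADCs-6d in 51 members and BEFs in 8. These values are what the rule selected on and carry no test. In bulk RNA, fewer cells that express a gene and less of its RNA per cell cannot be told apart.

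**Figure D1:**
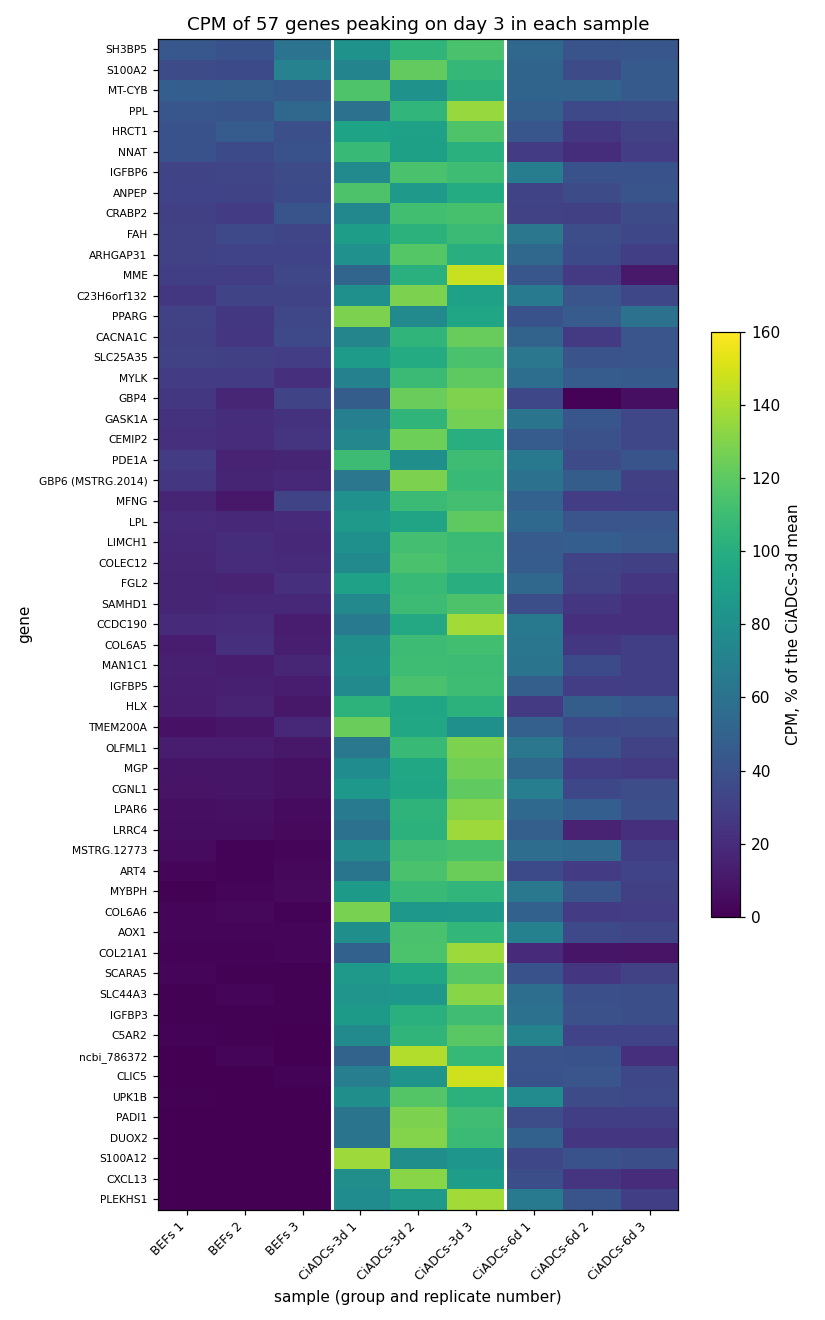
CPM of 57 of the 59 genes (rows) in each of the 9 samples (columns), as a percentage of the gene's CiADCs-3d mean (colour), with the genes ordered by their level in BEFs. The genes at the bottom, such as CXCL13 and PLEKHS1, had no counts or nearly none in BEFs, those at the top, such as SH3BP5 and S100A2, were already expressed there, and CiADCs-6d replicate 1 is the brightest CiADCs-6d column in 49 rows.

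A peak on day 3 that met the rule was uncommon among the genes that had a higher level there than in BEFs. By the same minimum, fold and lack of overlap, 1576 genes stood above BEFs in CiADCs-3d, and the 59 members were 3.74% of them. Over the 1576 genes the median ratio of the CiADCs-6d to the CiADCs-3d mean was 1.03. The mean was higher in CiADCs-6d than in CiADCs-3d in 840 of them and lower in 736 (46.7%). The mirrored rule found 25 genes that dipped in CiADCs-3d, and the same rule applied to CiADCs-6d found 246 that peaked there.

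The members with the highest CPM in CiADCs-3d, IGFBP3 and IGFBP5, code for IGF-binding proteins, and IGFBP6, of the same family, was also in the set. IGFBP3, the main carrier of IGFs in blood, had 52.3, 52 and 59.1 CPM in BEFs, 5295, 6194 and 6766 CPM in CiADCs-3d and 3624, 2396 and 2356 CPM in CiADCs-6d. IGFBP5, which also binds extracellular matrix, had 529, 534 and 467 CPM in BEFs, 2936, 4395 and 4258 CPM in CiADCs-3d and 1874, 1123 and 1155 CPM in CiADCs-6d. IGFBP6, which prefers IGF2, had 157, 159 and 173 CPM in BEFs, 360, 541 and 523 CPM in CiADCs-3d and 319, 190 and 192 CPM in CiADCs-6d. In each of these genes the CiADCs-3d samples stood highest, with replicate 1 the lowest of them, and CiADCs-6d replicate 1 was the highest on its day. Per transcript length, the CiADCs-3d level was 2500 FPKM for IGFBP3, 1264 FPKM for IGFBP5 and 493 FPKM for IGFBP6, against 22.4, 155 and 168 FPKM in BEFs.

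On day 6 these genes had not all come back to the fibroblast level. The contrast of CiADCs-6d with BEFs was not used to order these groups in the rule and was tested with edgeR's quasi-likelihood test over 14020 genes, with Benjamini-Hochberg adjustment, and a gene was called when the adjusted p was below 0.05 and the log2 fold change was 1 or more in either direction. IGFBP3 was higher in CiADCs-6d by a log2 fold change of 5.64 ± 0.20 (SE, edgeR adjusted p = 4.33e-10) and IGFBP5 by 1.40 ± 0.21 (edgeR adjusted p = 6.70e-05). IGFBP6 was not called (0.48 ± 0.20, edgeR adjusted p = 0.0521), although all its CiADCs-6d samples were above all BEFs samples. Related genes without a day 3 peak were looked up after these values were seen. IGFBP2 averaged 101, 367 and 383 CPM in BEFs, CiADCs-3d and CiADCs-6d, IGFBP4 788, 1026 and 1038 CPM, and IGFBP7 11.7, 35.7 and 68.1 CPM, so IGFBP7 was highest in CiADCs-6d. Of 30 genes tested on the IGF, VEGF, PDGF and HGF axes, 17 were called higher and 2 lower in CiADCs-6d, with a median log2 fold change of 1.35 against 0.03 over all genes tested. Over all 14020 genes tested, 21.9% were called higher and 13.4% lower, shares to set beside this and the later list counts.

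**Figure D2:**
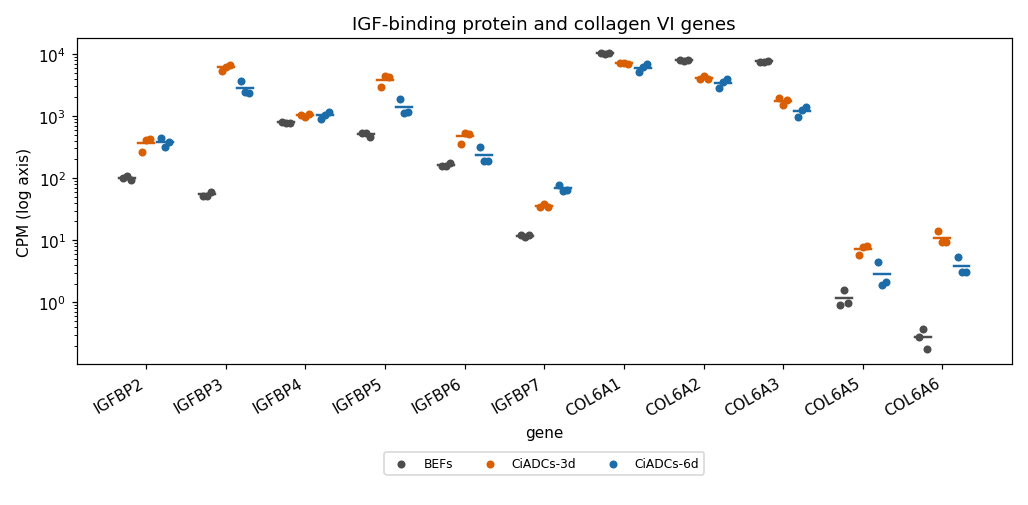
CPM (log axis) of IGF-binding protein genes and collagen VI genes in the 3 groups, in the order of time. Each point is a sample and each line the mean of a group. IGFBP3, IGFBP5, IGFBP6, COL6A5 and COL6A6 peak in CiADCs-3d, while COL6A1, COL6A2 and COL6A3 are highest in BEFs.

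Matrix genes in the set were minor chains and a calcification inhibitor, not the main fibroblast collagens. COL21A1, a fibril-associated collagen, had the largest ratio in the set, with 0.412, 0.374 and 0.436 CPM in BEFs, 11.5, 26.6 and 31.7 CPM in CiADCs-3d and 4.45, 2.12 and 1.93 CPM in CiADCs-6d. COL6A5 had 0.917, 1.58 and 0.959 CPM in BEFs, 5.67, 7.89 and 7.99 CPM in CiADCs-3d and 4.5, 1.88 and 2.15 CPM in CiADCs-6d. COL6A6 had 0.275, 0.374 and 0.174 CPM in BEFs, 13.8, 9.24 and 9.38 CPM in CiADCs-3d and 5.34, 3.02 and 3.11 CPM in CiADCs-6d. COL6A5 and COL6A6 code for alternative chains of collagen VI and lie next to each other among protein-coding genes in the ARS-UCD2.0 annotation. Their sequences were not compared, so whether reads were shared between them is not known. Both genes were low per length on day 3, at 0.9 FPKM and 1.24 FPKM. The main chains COL6A1, COL6A2 and COL6A3 averaged 1746, 1107 and 185 FPKM in CiADCs-3d, against 2538, 2126 and 788 FPKM in BEFs.

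In the test of CiADCs-6d against BEFs, COL21A1 (log2 fold change 2.75 ± 0.53), COL6A6 (3.73 ± 0.37) and COL6A5 (1.26 ± 0.36) were called higher, the last not without CiADCs-6d replicate 1, where its log2 fold change was 0.74 with an edgeR adjusted p of 0.055. COL6A1 (-0.81 ± 0.12), which missed the fold limit, COL6A2 (-1.23 ± 0.13) and COL6A3 (-2.70 ± 0.15) had negative log2 fold changes. Of 30 collagen chain genes tested, 10 were called higher and 13 lower in CiADCs-6d, with a median log2 fold change of -0.18.

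MGP, a vitamin K-dependent inhibitor of calcification, had 97.2, 96.6 and 72 CPM in BEFs, 810, 997 and 1307 CPM in CiADCs-3d and 558, 304 and 280 CPM in CiADCs-6d. At 1812 FPKM on day 3 it was among the 3 highest members per length, after IGFBP3 and MT-CYB. It was still higher in CiADCs-6d than in BEFs (log2 fold change 2.07 ± 0.26, edgeR adjusted p = 1.78e-05), while of 39 matricellular and proteoglycan genes 11 were called higher and 13 lower. Its neighbour in the annotation, ART4, of the ADP-ribosyltransferase family, was also a member, with 0.458, 0.291 and 0.523 CPM in BEFs, 10, 18.4 and 20 CPM in CiADCs-3d and 5.76, 4.62 and 5.15 CPM in CiADCs-6d. OLFML1, a secreted protein of the olfactomedin family, averaged 36.4 CPM in CiADCs-3d, and its lowest sample there, 23.3 CPM, hardly cleared its highest in CiADCs-6d, 23.1 CPM. CEMIP2, named TMEM2 in the table and linked to the breakdown of hyaluronan at the cell surface, averaged 261 CPM in CiADCs-3d. Its log2 fold change in CiADCs-6d was 0.81 ± 0.18, under the limit.

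Retinoid genes were among the members, in cells that received a retinoic acid receptor agonist throughout. CRABP2, which carries retinoic acid to its nuclear receptors, had 8.43, 8.02 and 11.6 CPM in BEFs, 20.9, 31.3 and 31.7 CPM in CiADCs-3d and 8.9, 8.43 and 10.4 CPM in CiADCs-6d. By day 6 its samples overlapped those of BEFs, with a log2 fold change of -0.06 ± 0.21 that turned positive, 0.13, without BEFs replicate 3 and 0.01 without CiADCs-6d replicate 2. Its relative CRABP1, no member, averaged 10.3 CPM in BEFs, 1787 CPM in CiADCs-3d and 1640 CPM in CiADCs-6d. AOX1, an aldehyde oxidase able to make retinoic acid from retinal, had 14.6, 15.3 and 15.7 CPM in BEFs, 523, 751 and 698 CPM in CiADCs-3d and 460, 232 and 221 CPM in CiADCs-6d. Its levels in CiADCs-6d were all above those in BEFs (log2 fold change 4.29 ± 0.28, edgeR adjusted p = 5.62e-08). A list of retinoic acid receptor targets and retinoid metabolism held CRABP2 but not AOX1. Of its 30 genes tested, 17 were called higher and 3 lower in CiADCs-6d, with a median log2 fold change of 1.52. The list summed to 639 to 682 CPM in BEFs, 9071 to 10803 CPM in CiADCs-3d and 9248 to 10971 CPM in CiADCs-6d. This sum did not peak on day 3.

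PPARG peaked early and at a low level. It had 4.08, 3.41 and 4.4 CPM in BEFs, 16.7, 9.87 and 12.3 CPM in CiADCs-3d and 5.25, 5.98 and 7.72 CPM in CiADCs-6d. Here replicate 1 was the highest CiADCs-3d sample and the lowest CiADCs-6d sample, the reverse of most members. PPARG met the rule in 6 of the 9 runs with 1 sample left out. It did not meet the rule without the CiADCs samples numbered 1 on both days. In CiADCs-6d, PPARG was not called (log2 fold change 0.64 ± 0.23, edgeR adjusted p = 0.0264), although all its CiADCs-6d samples were above all BEFs samples. The other PPAR genes did not share the peak: PPARA averaged 25.1, 30.6 and 52.3 CPM and PPARD 31.4, 26.2 and 35 CPM in BEFs, CiADCs-3d and CiADCs-6d.

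LPL, the lipase that frees fatty acids from circulating triglycerides and a PPARG target, was the only member on the list of mature adipocyte markers. It had 3.25, 2.91 and 3.27 CPM in BEFs, 14.2, 15.4 and 19.8 CPM in CiADCs-3d and 9.04, 6.93 and 6.92 CPM in CiADCs-6d, with no overlap between any of the groups. LPL was called higher in CiADCs-6d (log2 fold change 1.24 ± 0.19, edgeR adjusted p = 9.18e-05). Of 18 mature adipocyte markers tested 7 were called higher and 4 lower in CiADCs-6d (median log2 fold change 0.38), of 24 adipogenesis regulators 9 higher and 0 lower (0.37), and of 29 genes of lipid uptake and triglyceride assembly 13 higher and 5 lower (0.63).

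HLX, a homeobox transcription factor, varied less between the day 3 samples than PPARG, at 11.4, 10.4 and 11.3 CPM in CiADCs-3d, with 1.42, 1.7 and 1.13 CPM in BEFs and 3, 5.18 and 4.72 CPM in CiADCs-6d. It was called higher in CiADCs-6d (log2 fold change 1.56 ± 0.24).

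Genes of innate immunity and host defence formed the next group. CXCL13, a chemokine that draws B cells, was at 0 in every BEFs sample, with 14, 23.3 and 15.8 CPM in CiADCs-3d and 6.75, 4.24 and 3.59 CPM in CiADCs-6d. Against a floor of 3 counts per BEFs library, its mean was at least 135-fold higher in CiADCs-3d and at least 37.1-fold higher in CiADCs-6d. Of 18 chemokine genes tested, 16 were called higher and 0 lower in CiADCs-6d, with a median log2 fold change of 5.84. CXCL13 was the only chemokine gene in the set.

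S100A12, a calgranulin best known from neutrophils, had 43.2, 25.1 and 26.5 CPM in CiADCs-3d and 10.9, 12.7 and 12.2 CPM in CiADCs-6d. A single count was seen in BEFs, in replicate 1 (0.0458 CPM). Its calgranulin partners S100A8 and S100A9, looked up afterwards, had no count in BEFs and the same order of groups, but their CiADCs-3d means were only 1.82 and 1.72 times the CiADCs-6d means. S100A8 averaged 11.9 CPM in CiADCs-3d and 6.55 CPM in CiADCs-6d, and S100A9 16 and 9.26 CPM. In all 3 genes replicate 1 was the highest CiADCs-3d sample. The other S100 member, S100A2, was already expressed in BEFs, at 16, 15.3 and 30.2 CPM, with 30.8, 52 and 45.4 CPM in CiADCs-3d and 21.9, 15.5 and 19.4 CPM in CiADCs-6d. It met the rule narrowly, and BEFs replicate 3 was nearly level with the lowest CiADCs-3d sample.

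Complement and lectin genes followed. C5AR2, a receptor for the complement fragment C5a, had 0.275, 0.166 and 0.0872 CPM in BEFs, 15.6, 21.4 and 24.4 CPM in CiADCs-3d and 14.7, 6.55 and 6.54 CPM in CiADCs-6d. It was called higher in CiADCs-6d, by a log2 fold change of 5.65 ± 0.49. Of 15 acute phase and complement genes tested, 13 were called higher and 0 lower, with a median of 3.52. SCARA5, a scavenger receptor that takes up ferritin, had 1.7, 0.831 and 1.09 CPM in BEFs, 76, 83.5 and 104 CPM in CiADCs-3d and 35.7, 22.1 and 27.7 CPM in CiADCs-6d. The deposited annotation gives this entry the symbol SCARA5 but describes it as another protein, the nuclear GTPase SLIP-GC. COLEC12, a scavenger receptor with a lectin domain, averaged 12.5 CPM in BEFs, 66.7 CPM in CiADCs-3d and 24.3 CPM in CiADCs-6d, and its log2 fold change of 0.92 ± 0.19 stayed under the limit. FGL2, a fibrinogen-like secreted protein, averaged 9.83 CPM in CiADCs-3d and was called on day 6 at the limit itself (1.00 ± 0.28), a call lost in 12 other settings, upper-quartile scaling and limma on log2 FPKM among them. The log2 fold change was 0.61 without CiADCs-6d replicate 1.

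SAMHD1, a nucleotide hydrolase that restricts retroviruses, had 26.3, 29.5 and 28.1 CPM in BEFs, 119, 173 and 182 CPM in CiADCs-3d and 60.9, 39.8 and 33.8 CPM in CiADCs-6d. It stood above BEFs in all CiADCs-6d samples with a log2 fold change of 0.64 ± 0.21, which was not called. Guanylate-binding proteins are interferon-inducible GTPases of one family, so the reads given to each copy are uncertain. The GBP4 entry ncbi_100336669 had 1.65, 1.08 and 2.09 CPM in BEFs, 2.97, 7.8 and 8.16 CPM in CiADCs-3d and 2.2, 0.0942 and 0.429 CPM in CiADCs-6d. CiADCs-6d replicate 1 alone kept the BEFs level: the log2 fold change was -0.83 ± 0.71 with it and -2.70 without it, and without it this entry was called lower. Other entries named GBP4 were no members. Entry ncbi_507055 averaged 0.979, 5.42 and 3.25 CPM in BEFs, CiADCs-3d and CiADCs-6d (log2 fold change 1.68 ± 0.26). Entry ncbi_613313 averaged 0.882, 1.45 and 0.705 CPM (-0.36 ± 0.45). GBP6 (MSTRG.2014), a locus assembled from the reads, averaged 1.21 CPM in BEFs, 6.01 CPM in CiADCs-3d and 2.76 CPM in CiADCs-6d, and its call on day 6 (1.16 ± 0.34) was lost without CiADCs-6d replicate 1 (0.90). The interferon response list held no member: of its 28 genes tested, 12 were called higher and 5 lower in CiADCs-6d, with a median of 0.84.

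Markers of blood cells and macrophages, like these genes apart from S100A2 and GBP4, stood above BEFs on both days. The sum of these markers did not drop between the days. Of 13 markers 5 reached 1 CPM in a group, and the sum of all was 1.74 to 2.7 CPM in BEFs, 85 to 211 CPM in CiADCs-3d and 141 to 218 CPM in CiADCs-6d. CD74 contributed to it 34.4, 159 and 83.4 CPM in CiADCs-3d and 117, 57.4 and 62.8 CPM in CiADCs-6d. CD14 averaged 0.648 CPM in BEFs, 42.2 CPM in CiADCs-3d and 62.5 CPM in CiADCs-6d. All 5 of the blood and macrophage markers tested were called higher in CiADCs-6d, with a median log2 fold change of 6.56. The defining markers PTPRC and TYROBP had no count in any of the 9 samples. Endothelial markers, 8 of 13 at 1 CPM in a group, summed to 73.7 to 83, 356 to 499 and 230 to 355 CPM in BEFs, CiADCs-3d and CiADCs-6d, with EMCN at 0 throughout. Of 8 endothelial markers tested, 4 were called higher and 2 lower in CiADCs-6d (median log2 fold change 1.59). What part these markers had in the members' levels was not tested.

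Several members are best known from epithelia. DUOX2, an oxidase that makes hydrogen peroxide, had 10.4, 22 and 18.4 CPM in CiADCs-3d and 8.43, 4.24 and 4.24 CPM in CiADCs-6d, and no BEFs sample exceeded 0.0467 CPM. PADI1, which converts arginine in proteins to citrulline, had 0.137, 0.0415 and 0.0436 CPM in BEFs, 13.8, 28.9 and 24.9 CPM in CiADCs-3d and 8.48, 6.74 and 6.71 CPM in CiADCs-6d. UPK1B, a uroplakin of the tetraspanin family, had 0.109, 0 and 0.0436 CPM in BEFs, 12.1, 17.8 and 15.6 CPM in CiADCs-3d and 11.7, 5.61 and 5.36 CPM in CiADCs-6d. In these genes, nearly silent in BEFs, CiADCs-6d replicate 1 was the highest of its group, and in UPK1B it almost reached CiADCs-3d replicate 1. PLEKHS1, which has a pleckstrin homology domain, was at 0 in every BEFs sample too, with 9.35, 10.3 and 16.5 CPM in CiADCs-3d and 8.01, 4.95 and 3.54 CPM in CiADCs-6d. Its mean was at least 91.8-fold higher in CiADCs-3d and at least 42.0-fold higher in CiADCs-6d than the same BEFs floor.

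CGNL1, paracingulin, a protein of cell junctions, averaged 1.47 CPM in BEFs, 18.2 CPM in CiADCs-3d and 8.58 CPM in CiADCs-6d (log2 fold change in CiADCs-6d 2.51 ± 0.29). PPL, periplakin, which links keratin filaments to desmosomes and the cell envelope, behaved otherwise, with 94.5, 91.6 and 119 CPM in BEFs, 132, 234 and 301 CPM in CiADCs-3d and 108, 78.5 and 80.5 CPM in CiADCs-6d. Its log2 fold change on day 6 was -0.23 ± 0.25 and not called. Epithelial and keratinocyte markers, 11 of 15 at 1 CPM in a group, summed to 117 to 173 CPM in BEFs, 137 to 177 CPM in CiADCs-3d and 149 to 171 CPM in CiADCs-6d, ranges that overlap. Of 11 of these markers tested, 5 were called higher and 1 lower in CiADCs-6d, with a median log2 fold change of 0.36. EPCAM, a defining epithelial marker, averaged at most 0.0851 CPM in a group.

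Surface peptidases and other enzymes differed in their starting levels. ANPEP, aminopeptidase N, had 48.3, 49.4 and 53.5 CPM in BEFs, 173, 129 and 148 CPM in CiADCs-3d and 49, 54.6 and 61.9 CPM in CiADCs-6d. MME, neprilysin, had 2.84, 2.78 and 3.27 CPM in BEFs, 4.97, 9.72 and 14 CPM in CiADCs-3d and 4.12, 2.59 and 1.02 CPM in CiADCs-6d. Both overlapped BEFs on day 6, and the sign of both log2 fold changes (0.09 ± 0.12 and -0.23 ± 0.44) turned without CiADCs-6d replicate 3, to -0.03 for ANPEP and 0.12 for MME. FAH, the last enzyme of tyrosine breakdown, averaged 43.1 CPM in CiADCs-3d and also overlapped BEFs in CiADCs-6d. MAN1C1, a Golgi mannosidase, had 5.91, 4.94 and 7.15 CPM in BEFs, 33.1, 45.4 and 45.2 CPM in CiADCs-3d and 25.3, 14.9 and 12.2 CPM in CiADCs-6d, and was called higher in CiADCs-6d (log2 fold change 1.5 ± 0.26). MFNG, a fringe glycosyltransferase that modifies Notch receptors, averaged 2.45 CPM in BEFs, 12.4 CPM in CiADCs-3d and 4.5 CPM in CiADCs-6d. It was not called (0.84 ± 0.36), but was without BEFs replicate 3 (1.41). Of 17 Notch pathway genes tested 10 were called higher and 2 lower in CiADCs-6d, with a median of 2.18. GASK1A (FAM198A in the table), a Golgi-associated protein, averaged 7.73 CPM in CiADCs-3d and lay at the fold limit in CiADCs-6d, uncalled at 1.00 ± 0.29.

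Genes for calcium, lipid and contractile signalling were also among the members. CACNA1C, the pore-forming subunit of an L-type calcium channel, averaged 16.4 CPM in CiADCs-3d and overlapped BEFs on day 6 (log2 fold change 0.37 ± 0.26). PDE1A, a cyclic nucleotide phosphodiesterase activated by calmodulin, averaged 5.43 CPM in CiADCs-3d, and its call on day 6 (1.21 ± 0.31) was lost without CiADCs-6d replicate 1 (0.90). LPAR6, a receptor for lysophosphatidic acid, had 0.55, 0.582 and 0.392 CPM in BEFs, 5.29, 8.47 and 10.6 CPM in CiADCs-3d and 4.45, 3.86 and 3.16 CPM in CiADCs-6d. LPAR6 was called higher in CiADCs-6d (2.86 ± 0.33). The related LPAR3, no member, averaged 0.101, 42.5 and 26.2 CPM in BEFs, CiADCs-3d and CiADCs-6d, a ratio of 1.62 between the days.

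CLIC5, a chloride intracellular channel protein, had 4.59, 5.58 and 9.98 CPM in CiADCs-3d and 2.72, 2.83 and 2.31 CPM in CiADCs-6d, with counts in BEFs replicate 3 alone (0.0872 CPM). MYLK, the kinase of myosin light chain, had 44.5, 44.7 and 35.5 CPM in BEFs, 111, 172 and 190 CPM in CiADCs-3d and 91.4, 73.4 and 71.3 CPM in CiADCs-6d. LIMCH1, a regulator of non-muscle myosin, averaged 23.4 CPM in BEFs, 123 CPM in CiADCs-3d and 56.6 CPM in CiADCs-6d and was called higher in CiADCs-6d (1.24 ± 0.13), while MYLK was not (0.88 ± 0.19). ARHGAP31, a GTPase-activating protein, averaged 332 CPM in CiADCs-3d. Its log2 fold change in CiADCs-6d was 0.29 ± 0.19 and turned to -0.01 without CiADCs-6d replicate 1. SH3BP5 averaged 39.1 CPM in CiADCs-3d and overlapped BEFs in CiADCs-6d (-0.11 ± 0.18). MYBPH, a myosin-binding protein, had 0.137, 0.499 and 0.654 CPM in BEFs, 14.4, 17.9 and 17.4 CPM in CiADCs-3d and 10.6, 6.83 and 4.99 CPM in CiADCs-6d.

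MT-CYB (ncbi_3283889), the mitochondrially encoded cytochrome b of respiratory complex III, had 1081, 1084 and 1024 CPM in BEFs, 2604, 1841 and 2311 CPM in CiADCs-3d and 1161, 1142 and 1025 CPM in CiADCs-6d. On day 6 its log2 fold change was 0.02 ± 0.12, and -0.02 with upper-quartile scaling. Other genes of the mitochondrial genome with more than trace counts were also highest in CiADCs-3d without meeting the fold. Their ratio of the CiADCs-3d mean to the higher other mean ran up to 1.93 for ND6, and was 1.71 for ND5, 1.57 for COX1 and 1.25 for ND4L. An assembled locus that the table also names MT-CYB, MSTRG.1446, averaged 19.7 CPM in BEFs, 8.6 CPM in CiADCs-3d and 10.4 CPM in CiADCs-6d, without a peak.

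NNAT, neuronatin, a small membrane proteolipid, was the only member with all CiADCs-6d samples below all BEFs samples. It had 25.6, 22.8 and 25.5 CPM in BEFs, 68.4, 57.9 and 64.3 CPM in CiADCs-3d and 18, 13.2 and 18.3 CPM in CiADCs-6d. Its log2 fold change in CiADCs-6d was -0.62 ± 0.14 (edgeR adjusted p = 0.0018), under the fold limit. HRCT1 averaged 12.3 CPM in BEFs, 29.4 CPM in CiADCs-3d and 9.71 CPM in CiADCs-6d and was not called (-0.38 ± 0.18). LRRC4, an adhesion protein of synapses, had 0.871, 0.872 and 0.61 CPM in BEFs, 8.32, 14.4 and 19.1 CPM in CiADCs-3d and 6.79, 2.21 and 3.11 CPM in CiADCs-6d. SLC44A3, of the choline transporter-like family, averaged 0.0713 CPM in BEFs, 5.76 CPM in CiADCs-3d and 2.6 CPM in CiADCs-6d. SLC25A35, of the mitochondrial carrier family, averaged 17.1 CPM in CiADCs-3d and was not called in CiADCs-6d (0.66 ± 0.19).

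The remaining members have little known function. TMEM200A averaged 5.42 CPM in CiADCs-3d, CCDC190 7.05 CPM, C23H6orf132 25.2 CPM, the assembled locus MSTRG.12773 5.85 CPM and ncbi_786372, which the table does not name, 5.27 CPM. TMEM200A (log2 fold change 1.71 ± 0.34) and MSTRG.12773 (3.90 ± 0.43) were called higher in CiADCs-6d, as was ncbi_786372, which had counts in BEFs replicate 2 alone. CCDC190 (1.02 ± 0.46, edgeR adjusted p = 0.0639) and C23H6orf132 (0.61 ± 0.24) were not.

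In the test of CiADCs-6d against BEFs the members divided into genes still above the fibroblast level on day 6 and genes not called. All 59 members passed the filter on low counts, and 34 of them (57.6%) were called higher in CiADCs-6d, against 21.9% of all genes tested. None, 0 of 59, was called lower by edgeR or by DESeq2, against 13.4% of all genes by edgeR; at an unadjusted p under 0.05 with either tool 1 member, NNAT, was lower, short of the fold limit. The remaining 25 were not called. All CiADCs-6d samples lay above all BEFs samples in 45 members, against 39.4% of all genes tested, and below them in 1, against 33.2%. The samples overlapped in 13 members: GBP4, MME, CRABP2, MFNG, ANPEP, ARHGAP31, CACNA1C, HRCT1, FAH, PPL, S100A2, SH3BP5 and MT-CYB. The median log2 fold change of the members was 1.24, against 0.03 over all genes tested. These shares carry the choice of members, which had to exceed BEFs by more than 2 times in CiADCs-3d and to lie below that level by as much in CiADCs-6d, so nothing is read from the difference to all genes. Of the 1517 other genes that stood above BEFs in CiADCs-3d by the same minimum, fold and lack of overlap, 1338 (88.2%) were called higher in CiADCs-6d, with a median log2 fold change of 2.03, and the rule's limit on CiADCs-6d bears on that difference too. Without the CiADCs samples numbered 1 on both days, 30 members were called higher and 1, the GBP4 entry ncbi_100336669, lower.

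**Figure D3:**
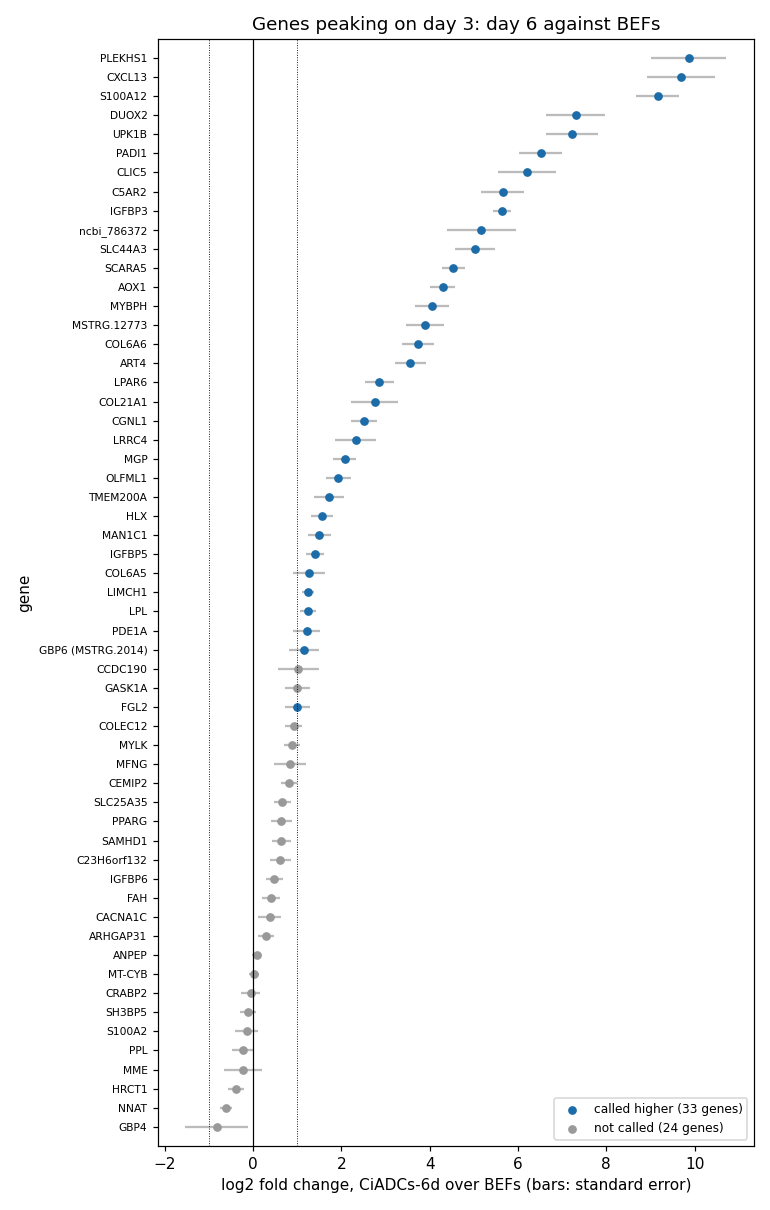
Log2 fold change of CiADCs-6d over BEFs for 57 of the 59 genes, with its standard error, from the edgeR fit to all 9 samples. Blue points are the 33 of these called higher and grey points the 24 not called, and dotted lines mark log2 fold changes of -1 and 1. Fitted values at the top, for genes at or near 0 counts in BEFs such as PLEKHS1 and CXCL13, depend on the fit's prior count and are not bounds.

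The size of the drop between the days differed between sample numbers. In 48 members replicate 1 was the lowest CiADCs-3d sample (81.4%, against 36.8% of all genes tested), in 51 replicate 1 was the highest CiADCs-6d sample (86.4%, against 41.1%), and in 45 both held (76.3%, against 22.9%). The median ratio of CiADCs-3d to CiADCs-6d was 1.45 (1.01 to 3.98) in the samples numbered 1 and 3.2 (1.61 to 30.5) in the means of those numbered 2 and 3. It was larger in those numbered 2 and 3 in 53 members. Exceptions included PPARG, ANPEP and HLX. Of 160 other genes above CiADCs-6d by the same minimum and fold, 108 (67.5%) also had both. The labels give the samples numbered 1 no other treatment, and the part of sampling or processing in this pattern was not tested.

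**Figure D4:**
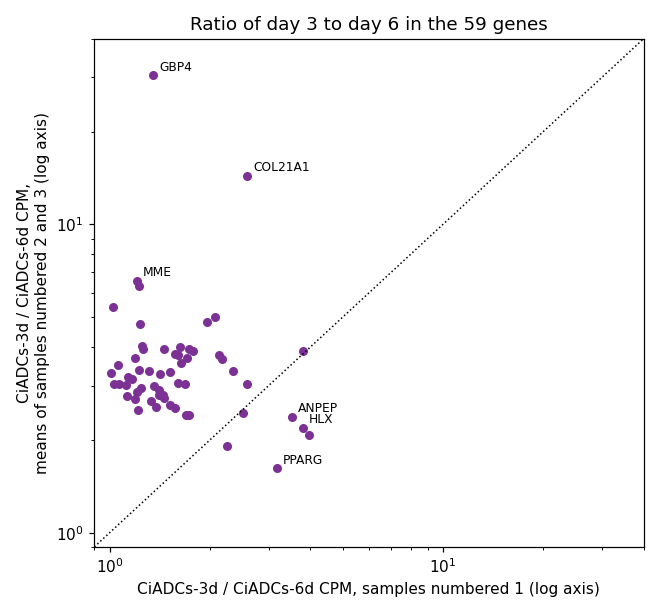
Ratio of CiADCs-3d to CiADCs-6d CPM in the samples numbered 1 (horizontal, log axis) and in the means of the samples numbered 2 and 3 (vertical, log axis), with 1 point per gene. Of the 59 genes, 53 lie above the dotted line of equal ratios, with GBP4 and COL21A1 farthest from it, and PPARG, ANPEP and HLX lie below.

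Some members and other genes lay close to the limits of the rule. Nearest the fold limit inside were MYLK (2, after rounding), UPK1B (2.01) and MT-CYB (2.03), and outside ACSS3 (also 2 after rounding, but not above it), TPD52 (1.99) and CCDC80 (1.98). Nearest the minimum inside were ncbi_786372 (5.27 CPM), TMEM200A (5.42 CPM) and PDE1A (5.43 CPM), and outside MSTRG.7135 (4.84 CPM), ABCA10 (4.65 CPM) and ABAT (4.48 CPM). By the ratio of the lowest CiADCs-3d sample to the highest other sample, the narrowest inside were OLFML1, S100A2 (30.8 against 30.2 CPM) and CCDC190 (4.65 against 4.55 CPM), and outside KLHDC8B (30.1 against 31.3 CPM), AZIN2 (14.2 against 15.8 CPM) and MSTRG.5327 (3.52 against 4.83 CPM). Overlap alone kept out 12 genes.

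In the annotation given with the table, 11 of the 30 members with a cellular component term (36.7%) were described as intrinsic to the membrane, against 17.8% of the tested genes with such a term. Of the 28 members with a KEGG pathway, 5 (17.9%) fell under metabolic pathways, against 19.3% of the tested genes with a pathway. Protein digestion and absorption held 4 (14.3%, against 1.16%), COL6A5, COL6A6, COL21A1 and MME, the Alzheimer disease pathway 4 (14.3%, against 2.86%), and calcium signalling 3 (10.7%, against 2.33%), PDE1A, MYLK and CACNA1C. These shares are descriptions without a test. Neighbouring members in the ARS-UCD2.0 order of protein-coding genes were COL6A5 and COL6A6 and, as above, MGP and ART4, each with 0 genes between them, and UPK1B and ARHGAP31, with 1. No member appeared among the lists of S phase and G2/M phase genes, and of their 28 and 26 genes tested 25 and 26 were called lower in CiADCs-6d.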

How the data were processed

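RNA of 9 samples was sequenced. The deposited table gives, per gene and sample, an expected count, estimated and not normalized, and FPKM, which the authors had scaled to gene length and library size. Per the labels, the tools were RSEM, StringTie 1.3.1, HISAT2 2.2.4 and fastp 0.18.0, with no role named, and libraries were made with a Ribo-Zero kit. The study's methods name TopHat and HTSeq instead. For the libraries they name oligo(dT) beads for eukaryotic mRNA and a Ribo-Zero kit for prokaryotic mRNA. Which of these was used could bear on mitochondrial transcripts. The genome build and whether counting used strand are not given in the sources used here.

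CPM was the expected count over the column total. Counts were rounded, filtered with filterByExpr (minimum count 10, minimum total 15), scaled by TMM and fitted in edgeR 4.0.16 (R 4.3.3) with 1 coefficient per group over all 9 samples, which left 14020 genes and removed 7492. The standard error is the log2 fold change over the square root of F. Contrasts with CiADCs-3d were used to choose the members and were not tested. Other settings used DESeq2 1.42.0, limma 3.58.1 on log2 FPKM, other scalings, a replicate block and each sample left out. Figures used Python 3.11.15 and matplotlib 3.10.9. Scripts were tested on simulated data.

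The members, the 39 gene lists and the tests were chosen with earlier results of these data known. Members were named by ratio, level, list, fold change and nearness to a limit, and the others, like the related genes set beside them, after their values were seen. Gene names followed the table and RefSeq (ARS-UCD2.0), to which all 57 members with an NCBI Gene ID were matched. Sequences and promoter motifs were not analysed here, and the values of 2 members, included in the counts, are not reported here.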

Additional observations from a re-analysis of the deposited data

How the results depend on the processing

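The rule was met by 230 genes with a fold of 1.5, 10 with a fold of 3, 94 with a minimum of 1 CPM, and 42 to 122 with 1 sample left out (122 when this was CiADCs-6d replicate 1, 116 when CiADCs-3d replicate 1, 42 when CiADCs-6d replicate 3). It was met by 173 without the CiADCs samples numbered 1 on both days, chosen after seeing the data. The 3 members lost in that setting were PPARG, MT-CYB and TMEM200A. With 1 sample left out, 32 members were kept in all 9 runs. For CiADCs-6d against BEFs, limma on log2(FPKM + 1), which compresses low genes, called 1844 genes higher, 1224 lower and 18 members higher. Adjusted p alone called 4991 genes higher, 4469 lower and 1 member, NNAT, lower. With 1 sample left out, 3029 to 3182 genes and 30 to 38 members were higher, and 1854 to 2160 genes and 0 to 1 members lower. The 1 member lower without CiADCs-6d replicate 1, and without both samples numbered 1, was the GBP4 entry ncbi_100336669.

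Of 1062 values of members under other settings, 1000 kept direction and call, 35 lost the call, 15 gained it and 12 changed sign, none of them called. Those were ANPEP (-0.03 without CiADCs-6d replicate 3), ARHGAP31 (-0.01 without CiADCs-6d replicate 1, -0.00 without both samples numbered 1), CRABP2 (0.13 without BEFs replicate 3, 0.01 without CiADCs-6d replicate 2), MME (0.12 without CiADCs-6d replicate 3), S100A2 (0.23) and SH3BP5 (0.09), both without BEFs replicate 3, and MT-CYB (-0.02 with upper-quartile scaling, -0.01 without BEFs replicate 3, -0.03 without CiADCs-6d replicate 1, -0.03 without both samples numbered 1). With 1 sample left out the values ran from -0.03 to 0.15 for ANPEP, -0.01 to 0.43 for ARHGAP31, -0.18 to 0.13 for CRABP2, -0.76 to 0.12 for MME, -0.34 to 0.23 for S100A2, -0.25 to 0.09 for SH3BP5 and -0.03 to 0.05 for MT-CYB. The cause was not tested.

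Deviations from the group mean in same-numbered CiADCs-6d and BEFs samples correlated with r of 0.00824, 0.145 and 0.0579. In same-numbered CiADCs-6d and CiADCs-3d samples r was -0.372, -0.207 and -0.131. With 3 samples per group the deviations depend on each other, so these values do not decide whether sample numbers pair the samples. With the replicate block, 3041 genes were higher, 1874 lower and 33 members higher. Some members near 5 CPM in CiADCs-3d rest on few counts in BEFs, such as ncbi_786372, with a total of 3 over the BEFs samples. The promoter motif comparison was not run.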

Other observations

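Genes of the MHC class II pathway, singled out after their values were seen, had their highest mean in CiADCs-3d, but their CiADCs-3d and CiADCs-6d samples overlapped and they were no members. BOLA-DRB3, a class II beta chain, had 1.84, 13.3 and 6.55 CPM in CiADCs-3d and 5.29, 1.88 and 1.98 CPM in CiADCs-6d. CIITA, the class II transactivator, had 1.84, 8.23 and 7.02 CPM in CiADCs-3d and 1.83, 3.82 and 1.98 CPM in CiADCs-6d. BOLA-DRA had 0.486, 7.65 and 4.4 CPM in CiADCs-3d and 2.44, 0.471 and 0.322 CPM in CiADCs-6d. None of them exceeded 0.218 CPM in a BEFs sample. In all 3 genes CiADCs-3d replicate 1 was the lowest of its group.

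Abundant secreted proteins also had their highest mean in CiADCs-3d without meeting the rule. C3 (ncbi_280677), the central complement component, had 2493, 3184 and 4486 CPM in CiADCs-3d and 2886, 1239 and 1373 CPM in CiADCs-6d, a ratio of means of 1.85 with overlapping samples. CXCL12, a chemokine of stromal cells, had 2739, 3092 and 2892 CPM in CiADCs-3d and 2305, 1139 and 1148 CPM in CiADCs-6d, a ratio of 1.9 without overlap. Of the 117 genes that met the rule only without the samples numbered 1, 48 had been kept out by the fold alone and 12 by overlap alone.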
